A study of Homo sapiens with 135 samples.

Results

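On day 9 of neural induction in vehicle (DMSO) cells, 3398 of the 8469 CTCF regions (40.1%) had no CTCF peak at the same place on day 4 and carried a peak of at least 1 TET protein. They are called here gained CTCF regions with TET, or members. A member is an interval of the day 9 DMSO CTCF peak list that overlapped, by at least 1 bp, a TET1, TET2 or TET3 peak of day 9 DMSO cells and no CTCF peak of day 4 DMSO cells. The remaining regions of that list were 2427 gained regions without TET, 1792 regions also called on day 4 with TET, and 852 regions also called on day 4 without TET. Merged over all lists of the series there were 350373 regions.

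ChIP-seq, which maps by sequencing where a protein sits on DNA, was carried out for CTCF, MBD3, TET1, TET2 and TET3 in the established human line H9, which consists of embryonic stem cells. The days sampled were 0, 4 and 9. Cells were left untreated (WT), given DMSO, or given the compound BPK25 at 20 µM, renewed daily with the induction medium. When the compound was added to the cells labelled day 0 is not given in the sources used here. For TET1, TET2 and TET3 the lists used here are those of DMSO and BPK25 cells, and the protocols name antibodies for CTCF, MBD3 and TET1 but none for TET2 or TET3. The 3 replicates of a group, not stated to be separate cultures, were pooled into 1 peak list, giving 36 lists of 321 to 84203 regions. A list therefore has no spread between samples. Differences between lists were not tested, and the intervals given are Wilson 95% intervals, which cover counting error only.

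CTCF is a zinc finger protein that binds a long DNA motif and, with cohesin, holds the ends of chromatin loops. Its binding at many sites is reduced where CpGs of the motif are methylated. TET enzymes oxidise 5-methylcytosine, the first step of active demethylation, and MBD3 is a core subunit of NuRD, a complex that joins nucleosome remodelling with histone deacetylation. Neural induction, by blocking SMAD signalling, takes pluripotent cells to neural progenitors within days.

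The word "gained" holds against the day 4 DMSO list and not against the other early CTCF lists. CTCF was called at 1156 members (34.0%, 95% interval 32.4 to 35.6) in 1 or more of the 5 other lists of days 0 and 4. Among all 8469 day 9 DMSO CTCF regions that share was 40.2%, or 47.6% with the day 4 DMSO list counted in. On day 4, 599 members (17.6%) had a CTCF peak in WT cells and 571 (16.8%) in BPK25 cells, with 27.1% and 26.4% among all regions. On day 0 the CTCF shares of members were 2.18% in WT, 1.94% in DMSO and 4.65% in BPK25, with 2.18%, 6.40% and 3.64% among all regions. Leaving out every member with an early CTCF peak in any treatment left 2242 members.

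The rule sets an edge, and some members lay close to it. A day 4 DMSO CTCF peak lay at a gap of at most 100 bp from 113 members and of at most 500 bp from 519. On the other side, 82 regions with TET were kept out by an overlap of at most 50 bp with a day 4 peak. The widest TET overlap was at most 50 bp in 105 members, with a median of 216 bp over all members, and 122 gained regions without TET had a TET peak within 100 bp.

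Members, like the list as a whole, were weak CTCF peaks. The authors' −log10 q at the summit measures the statistical significance of the peak over its local background. In members it had a median of 2.59, with the middle 50% from 1.86 to 3.54. Their fold enrichment over the local background had a median of 4.21 and a middle 50% from 3.73 to 4.90. The pileup at the summit, recovered from the authors' fold and p-value for 3262 members, had a median of 10 fragments over a background of 1.44. Gained regions without TET were lower still, with a median −log10 q of 2.10 and a pileup of 9. Regions also called on day 4 had medians of 2.99 with TET and 5.09 without. Their pileups had medians of 11 and 14, over the 1599 of 1792 and 509 of 852 for which one could be recovered, which leaves out the strongest peaks. Only 362 members (10.7%) reached a −log10 q of 5, against 50.6% of the regions called on both days without TET. Within the list the median member stood at percentile 50.4, and the median −log10 q of the whole list was also 2.59. Members were 155 to 1331 bp wide with a median of 221 bp, and 97.7% had a single summit. These are values of the list that chose the members, given as a description.

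**Figure D1:**
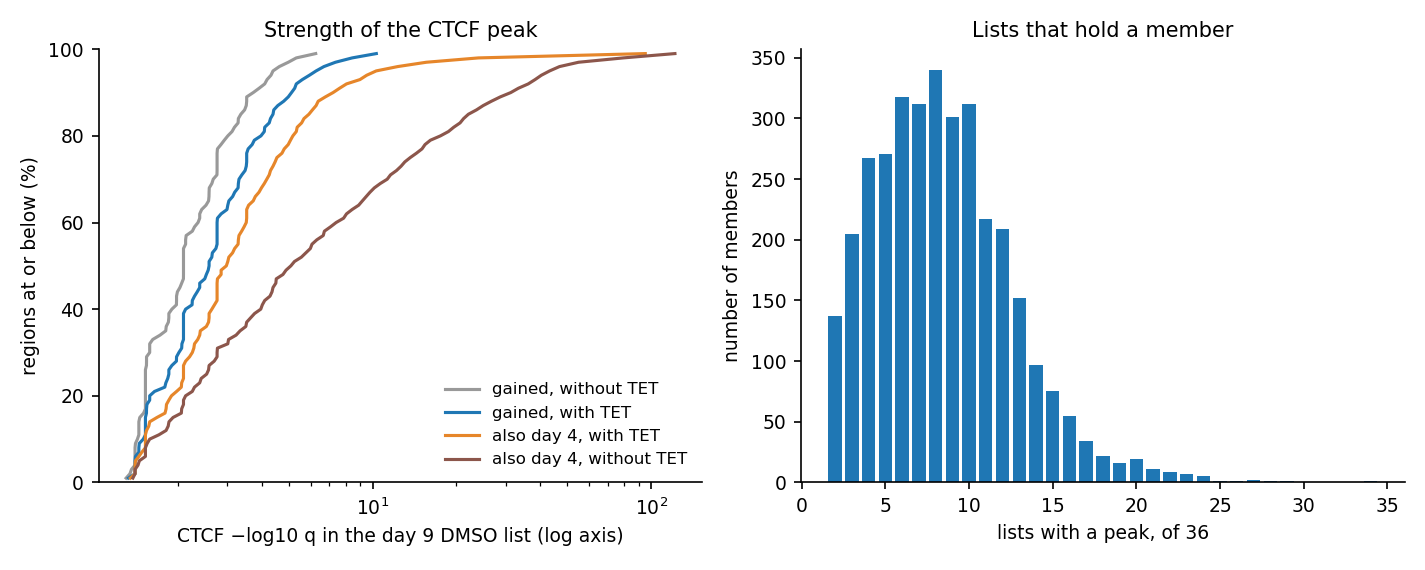
Left, cumulative share of regions (%) against the CTCF −log10 q of the day 9 DMSO list on a log axis, for the 4 sets of CTCF regions. The curve of the members, with a median of 2.59, lies between those of gained regions without TET (2.10) and of regions also called on day 4 with TET (2.99). Right, number of members by how many of the 36 lists have a peak there, with a median of 8.

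Apart from the 5 lists of the rule, a member had a peak in a median of 5 of the other 31 lists, with a middle 50% from 3 to 8. In 193 members (5.68%) no other list had a peak, against 11.9% of all day 9 DMSO CTCF regions and 32.9% of gained regions without TET. At the other end 229 members (6.74%) lay in merged regions with peaks in at least 18 lists, near the 6.49% among all regions.

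CTCF was called again at few members in cells of the same day that received no compound. The WT day 9 list, which the rule did not use, held 8521 regions, nearly the length of the DMSO list, and had a peak at 542 members (16.0%, 14.8 to 17.2). Among all day 9 DMSO CTCF regions the share was 14.6%, close to that of the members. Gained regions without TET had a WT day 9 peak at 3.79% and regions also called on day 4 with TET at 25.6%. Of the 542 members with a WT day 9 peak, 367 had none in WT on day 4, and 260 had none in any of the 6 CTCF lists of days 0 and 4. The remaining 175 (32.3%) were CTCF regions of WT cells on both days, against 24.2% of all 8521 WT day 9 regions. The count of 260 (7.65% of members) was not made for all day 9 DMSO CTCF regions. Whether it is particular to members is therefore not known. The WT share of members was 17.6% on day 4 and 16.0% on day 9. This order turned where only peaks reaching a −log10 q of 5 were used, with day 9 higher by 7.53 points, and with reciprocal overlap of at least 50%, with day 9 higher by 0.32 points. Recall followed the strength of the peak, with WT day 9 shares of 11.5%, 13.9%, 17.5% and 20.6% from the lowest to the highest quartile of member −log10 q. Gained regions without TET in the same 4 ranges of −log10 q had shares of 3.78%, 2.70%, 3.91% and 6.11%.

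TET proteins were already called at most members on day 4, when the DMSO CTCF list had no peak there. In day 4 DMSO cells TET1 was called at 1939 members (57.1%, 55.4 to 58.7), TET2 at 1802 (53.0%, 51.4 to 54.7) and TET3 at 1744 (51.3%, 49.6 to 53.0). Among all day 9 DMSO CTCF regions these shares were 43.3%, 40.4% and 39.3%. At least 1 of the 3 was called on day 4 at 2570 members (75.6%, 74.2 to 77.1; 57.1% among all regions) and all 3 at 1063 (31.3%, against 25.1%). Gained regions without TET had a day 4 TET peak at 32.8%, and regions also called on day 4 with TET at 76.0%, whose interval overlaps that of the members. The members were chosen for TET on day 9, so the persistence of each TET list was set beside theirs. Of members with TET1 on day 9, 62.7% had TET1 on day 4, against 42.7% of all 24572 TET1 regions of day 9. For TET2 the shares were 57.1% and 39.2%, and for TET3 58.0% and 41.8%. TET1 was called on day 4 at 45.7% of members that lacked it on day 9. The like shares were 49.6% (TET2) and 36.9% (TET3). On day 0 the DMSO lists had TET1 at 8.03% of members, TET2 at 3.68% and TET3 at 12.2%, with 5.80%, 2.77% and 9.16% among all regions. The TET lists differ in length, from 3485 regions (TET2) and 8577 (TET1) on day 0 to 36633 and 45019 on day 4, but the TET3 lists held 37154 and 33121. For TET3 the share at members was thus 12.2% on day 0 and 51.3% on day 4 from lists of like length.

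MBD3 was called at members mainly on day 4. In DMSO cells its share was 5.97% on day 0, 52.3% on day 4 (50.6 to 54.0) and 16.8% on day 9 (15.6 to 18.1), from lists of 7511, 46132 and 44052 regions. WT cells gave 9.62%, 51.6% and 6.68%, so both series without the compound were highest on day 4. Among all day 9 DMSO CTCF regions the day 4 share was 52.5% in DMSO, close to that of the members, and 47.1% in WT. On day 0 it was 13.6% in DMSO and 12.9% in WT, above the members. On day 9 the members were lower than all regions, whose MBD3 shares were 26.0% in DMSO and 17.1% in WT. With every MBD3 list of days 4 and 9 limited to its 15456 regions of highest −log10 q, the DMSO shares were 23.7% on day 4 and 8.89% on day 9, and the WT shares 20.9% and 3.88%. All day 9 DMSO CTCF regions at that length had 31.01% and 18.9% in DMSO, and 22.4% and 14.55% in WT. Day 4 was thus the higher day among all regions too. Of the 1777 members with MBD3 on day 4 in DMSO, 294 (16.5%) had it on day 9, against 14.3% of all 46132 MBD3 regions of day 4. WT cells had MBD3 at 69.2% of those 1777 members on day 4, against 49.2% of all day 4 DMSO MBD3 regions.

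MBD3 was called on day 4 more often at members with a day 4 TET peak than at those without. Of the 2570 members with a day 4 TET peak, 62.2% (60.3 to 64.1) also had MBD3, against 21.5% (18.8 to 24.4) of the 828 members without one. The share was also higher with a TET peak among all day 9 DMSO CTCF regions, at 64.4% (63.0 to 65.7) against 36.7% (35.2 to 38.3). The members fell into 1599 with both on day 4, 971 with TET alone, 178 with MBD3 alone and 650 with neither, which is 47.1%, 28.6%, 5.24% and 19.1%. For all regions these were 36.8%, 20.3%, 15.8% and 27.1%. Members with MBD3 on day 4 were called again as CTCF regions in WT day 9 cells at 19.8%, and members without it at 11.7%. Their median widths were 231 and 212 bp. The part of width in these shares was not tested. With windows of 100 bp to each side of the CTCF summit in place of whole intervals, MBD3 on day 4 was at 49.9% of members and a day 4 TET peak at 74.3%.

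**Figure D2:**
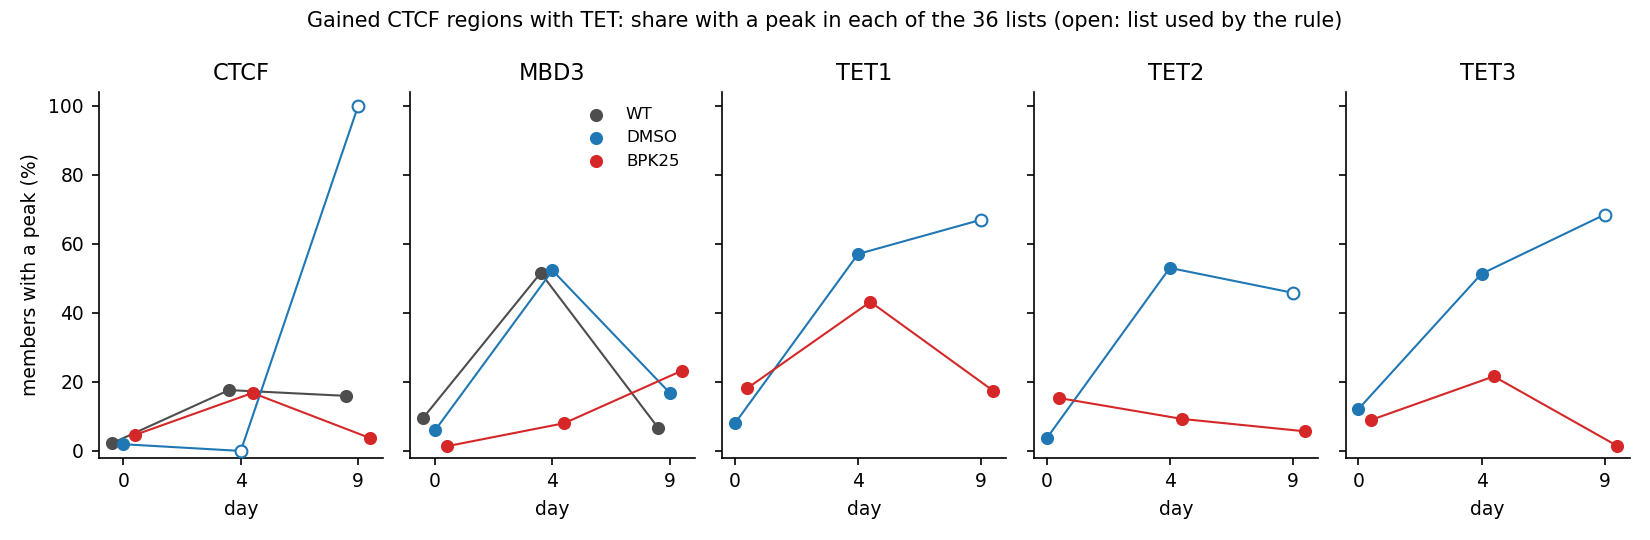
Share of the 3398 members with a peak (%) by day (0, 4, 9) for each of the 5 proteins, in WT, DMSO and BPK25 cells, with Wilson 95% intervals that are mostly smaller than the points. Open points are the lists that the rule used. In DMSO cells MBD3 is at 52.3% on day 4 and 16.8% on day 9, and under BPK25 at 8.03% and 23.2%.

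Under BPK25 CTCF was called at a smaller share of members than of all regions, and at least 1 TET protein at a larger one. All regions include those with a day 4 CTCF peak or without TET. The rule left these out of the members, so both orders are given as a description. On day 9 CTCF was called at 127 members (3.74%, 3.15 to 4.43), against 12.1% of all day 9 DMSO CTCF regions and 18.5% of regions also called on day 4 with TET. TET1 was called at 591 members (17.4%), TET2 at 193 (5.68%) and TET3 at 52 (1.53%), with 12.3%, 4.94% and 1.39% among all regions. These lists held 43694, 1928 and 321 regions. At least 1 TET protein was called at 748 members (22.01%; 15.9% among all regions), CTCF together with TET at 49 (1.44%; 1.65% among all regions), and neither at 2572 (75.7%). The last share was 73.7% among all regions, close to that of the members. The DMSO lists of that day chose the members, so no difference from them is given. The BPK25 day 9 CTCF list held 3795 regions. With the WT day 9 list limited to that length, WT had a CTCF peak at 8.83% of members (7.92 to 9.83), above the 3.74% of BPK25. The order was the other way among all day 9 DMSO CTCF regions, with 8.64% in WT and 12.1% in BPK25. In whole lists, regions called on both days without TET had 16.55% in WT and 64.7% in BPK25. Regions also called on day 4 with TET had 25.6% and 18.5%, and gained regions without TET 3.79% and 0.618%. Both of these sets had the order of the members.

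The TET and MBD3 lists of day 4 were not used by the rule. The members were nonetheless chosen in DMSO lists only, day 4 CTCF among them, which favours peaks of DMSO over peaks of BPK25. The shares of both treatments are therefore a description, set beside those of all day 9 DMSO CTCF regions, which were chosen in DMSO as well. TET2 was called at 53.0% of members in DMSO and 9.27% in BPK25, TET3 at 51.3% and 21.6%, and TET1 at 57.1% and 43.2%. MBD3 was called at 52.3% and 8.03%. Among all regions the shares were also lower under BPK25. TET2 was at 40.4% in DMSO and 6.78% in BPK25, TET3 at 39.3% and 18.0%, TET1 at 43.3% and 32.8%, and MBD3 at 52.5% and 16.6%. TET1 was lower although its BPK25 list was longer, with 84203 against 45019 regions, and the other 3 lists were shorter. At equal length within each protein the shares in DMSO and BPK25 were 57.1% and 29.0% for TET1, 31.2% and 9.27% for TET2, 31.4% and 21.6% for TET3, and 23.7% and 8.03% for MBD3. All regions at these lengths had 43.3% and 21.8% (TET1), 24.8% and 6.78% (TET2), 25.3% and 18.0% (TET3), and 31.01% and 16.6% (MBD3). The lower share under BPK25 was thus common to members and all regions. Of members with TET1 in day 4 DMSO cells 54.2% had it in BPK25 cells, near the 53.6% of all regions with TET1, and for TET2 the shares were 10.6% and 10.98%. For TET3 they were 32.6% and 36.3%. For MBD3 they were 10.2% (8.92 to 11.7) in members and 27.2% (25.9 to 28.5) in all regions. All regions include those also called on day 4, which the rule left out of the members. There MBD3 was at 84.2% in DMSO and 28.8% in BPK25 with TET, and at 88.4% and 66.0% without TET. Gained regions without TET had 16.9% and 2.27%. Because the BPK25 lists differ in length, these shares are not compared between proteins.

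On day 9 MBD3 went the other way. It was called at 570 members in DMSO (16.8%) and 789 in BPK25 (23.2%, 21.8 to 24.7), from lists of 44052 and 44297 regions, while among all day 9 DMSO CTCF regions the shares were 26.0% and 25.8%. Of these members 182 had MBD3 in both treatments, 607 in BPK25 alone and 388 in DMSO alone. This split was not made for all day 9 DMSO CTCF regions, so whether it is particular to members is not known. Regions also called on day 4 with TET had 37.1% in DMSO and 38.2% in BPK25, and gained regions without TET 11.04% and 9.19%. With lists of 15456 regions the members had 8.89% (7.98 to 9.89) in DMSO and 11.2% (10.1 to 12.3) in BPK25, and all regions 18.9% and 16.0%. The direction turned where peaks under 4-fold enrichment were left out, with 3.24% in BPK25 and 13.1% in DMSO. WT cells of that day, also without the compound, had MBD3 at 6.68% of members (17.1% of all regions), from 29341 regions. WT minus DMSO was -10.1 points, a larger gap than the 6.45 points of BPK25 minus DMSO. At equal length these were -5.00 and 2.27 points.

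**Figure D3:**
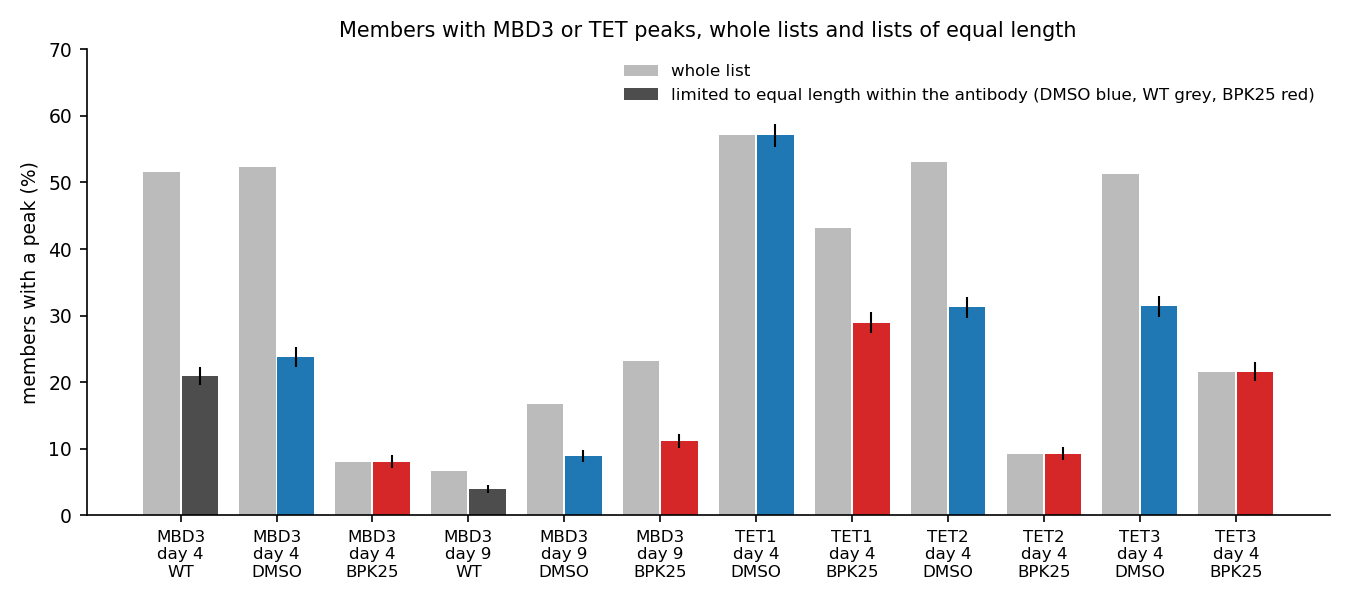
Share of members with an MBD3 or TET peak (%) in whole lists (light bars) and in lists limited to equal length within each antibody by −log10 q (coloured bars, with Wilson 95% intervals). On day 4 BPK25 lies below DMSO for each of the 4 proteins at equal length, for example 29.0% against 57.1% for TET1. On day 9 MBD3 is at 11.2% in BPK25, 8.89% in DMSO and 3.88% in WT.

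On day 0 the BPK25 list had TET1 at 18.2% of members and TET2 at 15.3%, against 8.03% and 3.68% in DMSO. Among all day 9 DMSO CTCF regions the BPK25 shares were 14.3% and 11.5%, with 6.67% for TET3 and 1.81% for MBD3. Those BPK25 lists were 72148 and 31522 regions long, against 8577 and 3485. At equal length the order turned. TET1 was then at 5.03% of members under BPK25 against 8.03% under DMSO, and TET2 at 3.30% against 3.68%, with overlapping intervals for TET2. TET3 was at 8.95% in BPK25 and 12.2% in DMSO, and at equal length at 8.95% and 8.30%. MBD3 was at 1.35% in BPK25 and 5.97% in DMSO, and at the 590 regions of the shorter list at 1.35% and 0.118%. The last share stood for 4 members. Among all day 9 DMSO CTCF regions at equal length MBD3 was at 1.81% in BPK25 and 3.33% in DMSO, so its order did not turn. TET1 was at 3.86% and 5.80% of all regions, TET2 at 2.35% and 2.77%, and TET3 at 6.67% and 6.08%. These had the order of the members.

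Set beside the regions most like them, the members lay between gained regions without TET and regions also called on day 4 with TET in 24 of the 31 lists outside the rule. These sets are defined by the day 4 CTCF and day 9 TET lists of the rule, so the order is given as a description. The members also lay between them in median width (188, 221 and 253 bp) and −log10 q (2.10, 2.59 and 2.99). The part of these in the order was not tested. In the other 7 lists, the 6 TET lists of day 0 and TET1 of day 9 BPK25, the members had the highest share. Their interval overlapped that of the next set for TET2 of day 0 in DMSO and BPK25 and for TET3 of day 0 in BPK25. MBD3 on day 4 in DMSO was at 16.9%, 52.3% and 84.2% of these 3 sets in that order, and CTCF in day 4 BPK25 cells at 3.67%, 16.8% and 50.8%. The members were closer to regions also called on day 4 for TET on day 4, and closer to gained regions without TET for MBD3 in day 9 WT cells, with 6.68% against 5.52% and 22.8%. For TET1 under BPK25 on day 9 the members had 17.4% (16.2 to 18.7), against 14.0% in regions also called on day 4 and 7.83% in gained regions without TET. For TET3 on day 0 in DMSO they had 12.2%, against 7.03% and 9.48% in the same order. The 852 regions called on both days without TET were unlike these sets. They had MBD3 on day 9 in DMSO at 81.8%, CTCF in day 9 BPK25 cells at 64.7% and a day 4 TET peak at 13.2%. With 1 list per condition these differences have no replicate check.

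**Figure D4:**
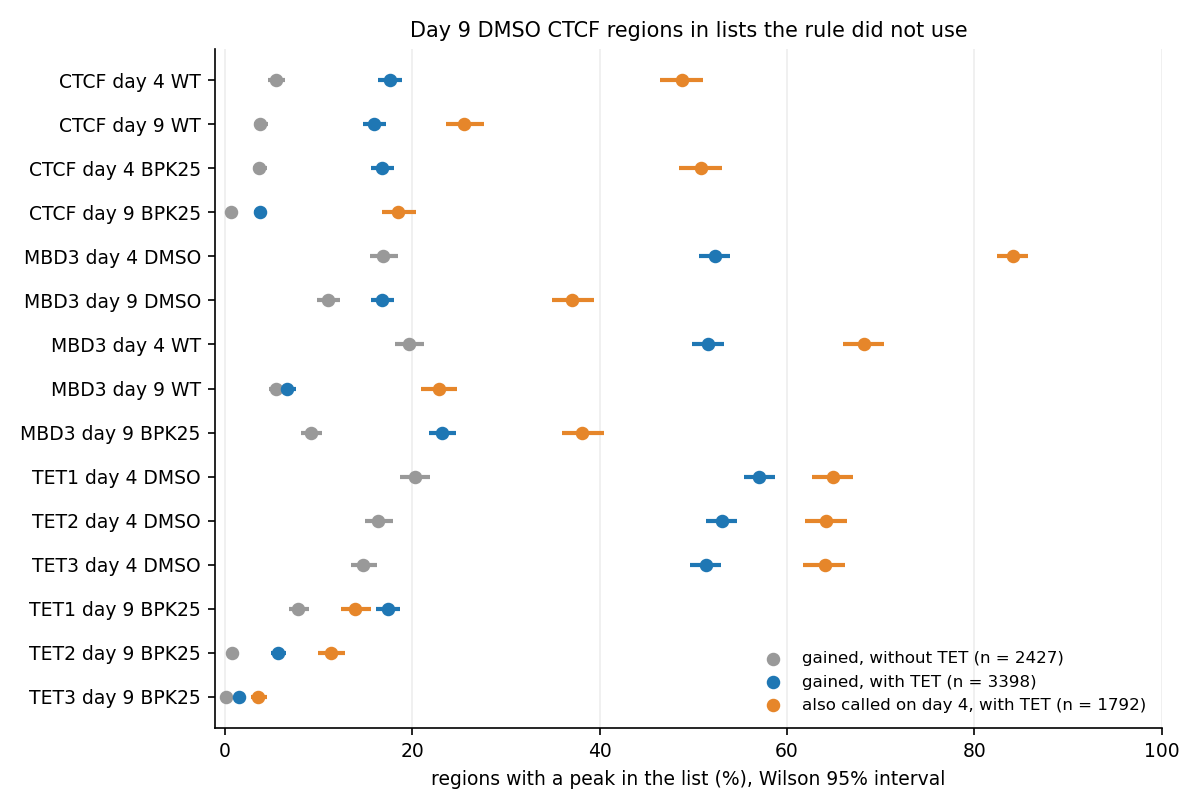
Share of regions with a peak (%) in 15 lists that the rule did not use, for gained regions without TET (grey), members (blue) and regions also called on day 4 with TET (orange), with Wilson 95% intervals. The members lie between the other sets in all lists plotted but TET1 of day 9 BPK25, where they are highest at 17.4%.

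Members differed by which TET proteins they carried on day 9. TET3 was called at 2326 members (68.5%), TET1 at 2276 (67.0%) and TET2 at 1557 (45.8%), from lists of 25543, 24572 and 15250 regions. Among all day 9 DMSO CTCF regions the shares were 45.4%, 42.7% and 29.8%. All 3 were called at 785 members (23.1%), 2 at 1191 and only 1 at 1422. Among the latter TET3 stood alone at 609, TET1 at 544 and TET2 at 269. Peaks of members ranked above the middle of the TET lists, at median percentiles of 67.8 (TET1), 67.3 (TET2) and 68.8 (TET3). These are counts of the rule's own lists and are given as a description.

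In 23 of the 31 lists outside the rule the share of members was higher with each further TET protein. The other 8 were 7 lists of day 0 and MBD3 of day 9 WT cells, with 7.10%, 6.05% and 6.88% for 1, 2 and 3 TET proteins. MBD3 on day 4 in DMSO was at 38.05% of members with 1 TET protein, 57.2% with 2 and 70.7% with 3. A WT day 9 CTCF peak was at 9.35%, 19.5% and 22.5%, and MBD3 in day 9 BPK25 cells at 16.8%, 23.5% and 34.4%. All 3 TET proteins on day 4 were found at 16.7%, 34.5% and 52.9%. Regions also called on day 4 with TET had the same order in these shares. With 1 and 3 TET proteins, MBD3 on day 4 in DMSO was at 74.4% and 91.2% of them. A WT day 9 CTCF peak was at 18.7% and 33.9%, and MBD3 in day 9 BPK25 cells at 30.15% and 50.7%. All 3 TET proteins on day 4 were at 23.4% and 70.7%. MBD3 on day 9 in DMSO had the other order in these regions, with 41.65% and 37.0%, against 14.1% and 22.2% in members. The classes of members also differed in width, with medians of 204, 227 and 251 bp, and in −log10 q, with medians of 2.40, 2.63 and 2.77. The part of these in the shares was not tested. Members with TET2 alone stood apart from those with TET1 or TET3 alone. Their MBD3 share in DMSO was 29.4% on day 4 and 29.0% on day 9, whereas members with TET1 alone had 36.6% and 11.2% and members with TET3 alone 43.2% and 10.2%. A WT day 9 CTCF peak was found at 3.35% of members with TET2 alone, 10.1% with TET1 alone and 11.3% with TET3 alone. A TET peak in day 9 BPK25 cells was found at 30.9%, 16.0% and 11.2% of them in the same order.

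**Figure D5:**
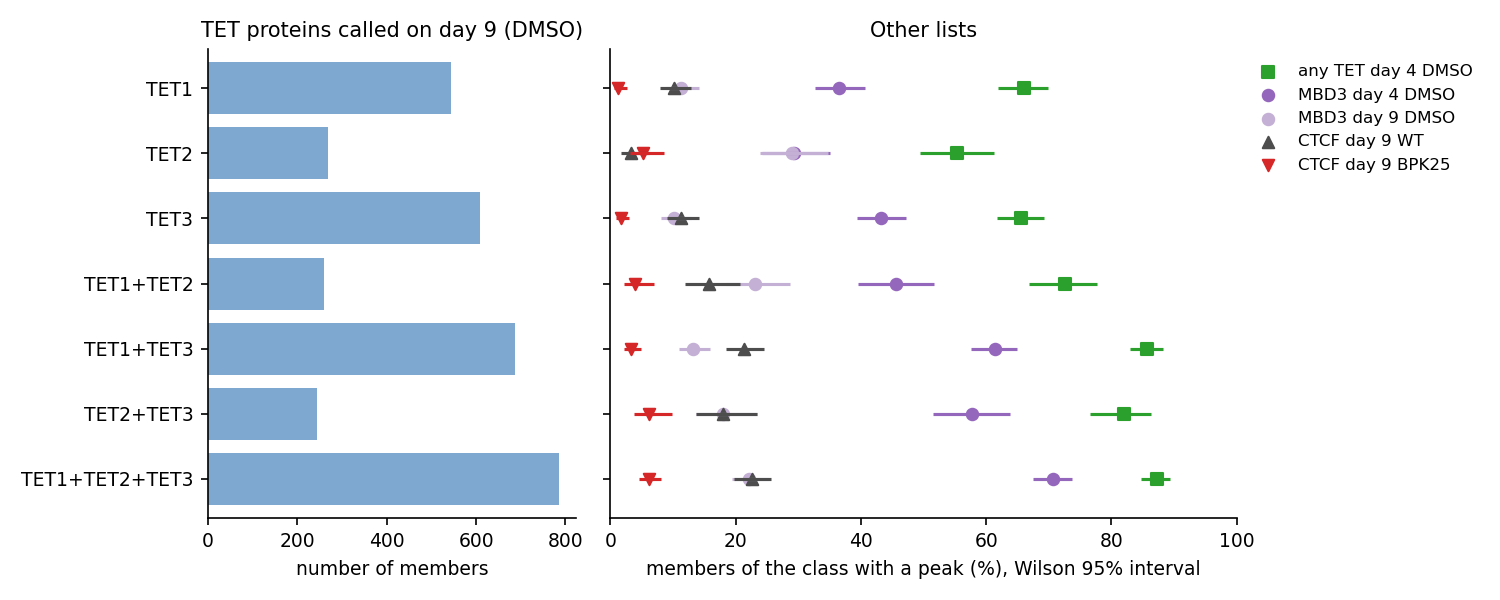
Left, number of members by the TET proteins called in day 9 DMSO cells, from 244 (TET2 and TET3) to 785 (all 3). Right, share of each class (%) with a peak in other lists, with Wilson 95% intervals. MBD3 on day 4 runs from 29.4% with TET2 alone to 70.7% with all 3, and MBD3 on day 9 is highest, 29.0%, with TET2 alone.

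The rule asks for a TET peak that overlaps the CTCF interval, so the distances between their summits are largely set by it and are given as a description. The nearest TET1 summit of day 9 was at a median of 64 bp from the CTCF summit, with a middle 50% from 25 to 135 bp, TET2 at 63 bp and TET3 at 69 bp. Within 50 bp lay 42.5%, 43.8% and 38.9% of them. Regions also called on day 4 with TET had medians of 59, 61 and 65 bp. For MBD3 on day 4 the medians were 69 bp in members and 51 bp in those regions. For the WT day 9 CTCF list, the same protein, they were 58 bp and 48.5 bp.

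Chromosome 1 held 652 members (19.2%, 17.9 to 20.5), more than any other chromosome, and 228 of these lay in its first 30 Mb. The share among all day 9 DMSO CTCF regions was 19.1%, and it was 28.1% in regions also called on day 4 with TET and 15.0% in gained regions without TET. In whole lists chromosome 1 took 22.8% of WT day 9 CTCF regions, 17.7% of day 9 DMSO TET1 regions and 14.6% of day 9 DMSO MBD3 regions. Chromosome 19 came next among members with 231 (6.80%), followed by chromosome 2 with 212 (6.24%). Members on chromosome 1 had a WT day 9 CTCF peak at 21.6% and a day 4 TET peak at 83.4%, and those elsewhere at 14.6% and 73.8%. For MBD3 on day 9 in DMSO the intervals overlapped, with 15.6% and 17.0%. Another member lay within 10 kb of 597 members (17.6%). Neither this count nor that in the first 30 Mb of chromosome 1 was made for all day 9 DMSO CTCF regions. Whether they are particular to members is therefore not known.

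The members of highest −log10 q were peaks of many lists. Coordinates are those of the files, build hg19, counted from 1. Annotation and sequence of that build were not used here, so genes and motifs at these regions are not given. The 4 highest lay together on chromosome 10, beside the centromere, at chr10:42395989-42396187, chr10:42598046-42598207, chr10:42388301-42388465 and chr10:42385146-42385301. Their CTCF −log10 q in day 9 DMSO cells was 523.7, 396.7, 369.1 and 346.4, but their fold enrichments were low, between 1.86 and 3.03. They had peaks in 29, 21, 23 and 20 of the 36 lists. CTCF was called at each of them on day 0 in WT, DMSO and BPK25 cells, at chr10:42395989-42396187 with −log10 q of 1525.4, 1957.8 and 1687.5. At these 4 regions "gained" therefore describes the absence of a day 4 DMSO peak alone.

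The next 2 by −log10 q carried all 3 TET proteins on day 9. At chr12:2365023-2365207 the −log10 q in day 9 DMSO cells was 94.2 for CTCF, 175.9 for TET1, 107.5 for TET2 and 105.9 for TET3. The CTCF fold was 5.14. CTCF was also called there in WT day 9 (106.7) and DMSO day 0 (58.8) cells, in 3 CTCF lists in all, and TET1 in each of its 6 lists. At chr4:190155050-190155204, near the end of the long arm, the day 9 DMSO values were 37.9 for CTCF, 65.4 for TET1, 41.9 for TET2 and 44.8 for TET3. Its other CTCF peak was in day 0 DMSO cells (49.9). Both regions thus had CTCF on days 0 and 9 in DMSO cells.

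Members with a WT day 9 CTCF peak and none in the 6 early CTCF lists were gained in both series. The strongest was chr4:7865691-7865863, with a CTCF −log10 q of 16.2 in DMSO and 27.1 in WT. TET1 was its day 9 TET protein (21.2) and was called there in 5 of 6 TET1 lists, day 4 included (23.03), while no TET2 list had a peak. At chr1:16984818-16985068 CTCF had 13.4 in DMSO and 16.4 in WT, and TET3 on day 9 reached 36.8 with a fold of 7.85. TET1, TET2 and TET3 had been called there on day 4 in DMSO at 14.9, 16.8 and 17.2, with MBD3 at 10.4. The region chr20:46523481-46523672 had CTCF at 10.3 and 8.12, all 3 TET proteins on both days and MBD3 on day 4 (10.6). The region chr1:219347126-219347336 had the highest CTCF fold of the 4, at 7.41, and peaks in only 5 lists. Its −log10 q was 10.9 in DMSO and 1.59 in WT, TET3 on day 9 had 17.0 and TET2 4.99, and no day 0 list had a peak there.

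Among members with all 3 TET proteins on day 4, chr22:51082138-51082655 was the strongest, with a CTCF −log10 q of 21.9. TET1, TET2 and TET3 had 4.95, 3.23 and 6.71 there on day 4 and 8.17, 4.29 and 5.65 on day 9, and MBD3 had 8.45 on day 4 and no DMSO peak on day 9. CTCF was called there in WT cells on day 4 (7.72) and day 9 (17.1). At chr1:247275151-247275544, the member of highest CTCF fold (9.22), CTCF had 14.3 and the TET proteins 8.23, 6.08 and 6.03 on day 4 and 2.77, 4.57 and 2.74 on day 9. Values of −log10 q are read within a list and give no change between days.

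Some members were peaks nearly everywhere. The region chr14:101504600-101504995 had a peak in 34 of the 36 lists, with a CTCF −log10 q of 13.8 in day 9 DMSO cells, and lacked one in the CTCF lists of day 4 DMSO and BPK25 cells. The regions chr2:64602845-64603266 and chr6:44149373-44149970 had peaks in 28 and 27 lists, CTCF on day 0 in all 3 treatments among them. Under BPK25 on day 9 CTCF and TET were both called at chr2:121149020-121149350, where CTCF had 6.52, TET1 3.84, TET2 14.6 and TET3 12.5. In DMSO cells of that day the same region had 21.0 for CTCF and 21.6, 26.2 and 11.5 for TET1, TET2 and TET3. At chr1:2055597-2055775 the day 9 BPK25 list had CTCF at 13.7 and TET1 at 29.4, whereas its TET protein in day 9 DMSO cells was TET2 (19.4).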

How the data were processed

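Each of the 36 narrowPeak lists pools replicates 1 to 3 of a group, set against a control, per the labels' descriptions. The input used as that control is not given in the sources used here. Per the submitters' processing notes, MACS2 2.1.2 was among the tools, with Bowtie2 2.3.4, bedtools 2.25.0, SAMtools 1.9 and FastQC 0.11.7. The notes give build hg19 and no roles. Every summit has a fold enrichment, a ratio computed by the authors. It also has a p-value and a q-value, deposited as −log10, with q of at most 0.05. Both describe a single peak and were compared within a list only. The lists state no depth, which limits detection of weak sites to an unknown degree.

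Summit rows of 1 interval were collapsed to 1 region with its highest −log10 q, and regions overlapping by at least 1 bp were shared. The pileup at a summit was solved as a whole number from fold and p-value under a Poisson law for −log10 p up to 12, within 0.01 (98.6% of such members). Quartiles of member −log10 q, equal list lengths, summit windows and the removal of chromosome 1 were chosen after the data were seen. The members and the regions' naming rule were chosen with earlier results of these data known. Named regions were the 6 members of highest CTCF −log10 q and 4 each by rank over the CTCF and TET lists with all 3 TET proteins, by WT day 9 CTCF without early CTCF, by number of lists, by all 3 TET proteins on day 4, and by CTCF with TET under BPK25. Chromosome 8 and unplaced sequences were passed over. Gene lists and the motif search planned for an hg19 annotation were not used here.

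Scripts used scipy 1.17.1, pandas 2.3.3, numpy 2.4.6 and Python 3.11.15, and plots matplotlib 3.10.9. The overlap code was compared with bedtools 2.31.1, with 4449 CTCF regions found by both for MBD3 on day 4 in DMSO, and 5280 by bedtools against 5282 here when a gap of up to 500 bp counted. Further, all 2564 overlaps planted in a simulated list of 8469 regions were recovered.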

Additional observations from a re-analysis of the deposited data

Results flagged for a closer look

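For 3 proteins the difference between BPK25 and DMSO at members had opposite signs on different days, in each case with intervals of the 2 shares that did not overlap. These intervals cover counting error over regions only, and both shares are of the same members, so they do not measure the spread between conditions. With 1 pooled list per condition the change between days was not tested, and the members were chosen in DMSO lists only. MBD3 differed, BPK25 minus DMSO, by -4.62 percentage points on day 0, -44.3 on day 4 and 6.45 on day 9. At equal list length the BPK25 and DMSO shares on day 0 were 1.35% and 0.118%, and their order turned. The last share stood for 4 members. Among all day 9 DMSO CTCF regions the shares at that length were 1.81% and 3.33%, and the order did not turn. At members the day 4 shares, 8.03% and 23.7%, and the day 9 shares, 11.2% and 8.89%, kept their order. Among peaks of 4-fold enrichment or more the day 9 order turned, to 3.24% and 13.1%. On day 9 WT minus DMSO, both without the compound, was -10.1 points, a larger gap than that of BPK25 minus DMSO. Among all day 9 DMSO CTCF regions MBD3 in BPK25 and DMSO was at 1.81% and 13.6% on day 0 and 16.6% and 52.5% on day 4. On day 9 it was at 25.8% and 26.0% of all regions, which are close to each other. TET1 differed by 10.2 points (10.15) on day 0 and -13.9 on day 4, and TET2 by 11.7 points (11.65) on day 0 and -43.8 on day 4. All day 9 DMSO CTCF regions had the same signs for both proteins. In BPK25 and DMSO TET1 was at 14.3% and 5.80% of them on day 0 and 32.8% and 43.3% on day 4. TET2 was at 11.5% and 2.77% on day 0 and 6.78% and 40.4% on day 4. At members the day 0 orders turned at equal length, to 5.03% against 8.03% for TET1 and 3.30% against 3.68% for TET2. They turned among all regions as well.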

How the results depend on the processing

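The number of members was 3398. It was 279 when all lists were limited to a −log10 q of 5 or more, 1667 with peaks of at least 4-fold enrichment, 2242 without any CTCF peak of day 0 or 4 and 785 with all 3 TET proteins. In what follows the shares are those with a CTCF peak in WT day 9 and in BPK25 day 9, MBD3 in DMSO day 9, any TET in DMSO day 4 and any TET in BPK25 day 9, given as 16.0%, 3.74%, 16.8%, 75.6% and 22.01% in the report. With −log10 q of at least 5 they were 13.3%, 5.38%, within the interval, 69.5% and 19.7%. With 4-fold enrichment they were 6.72%, 1.26%, 13.1%, 70.6% and 5.10%. Reciprocal overlap of at least 50% gave 12.8%, within the interval, 10.5%, 57.5% and 15.6%. Counting a gap of up to 500 bp as overlap gave 20.0%, 4.85%, 22.5%, 80.6% and 27.7%. Without early CTCF peaks they were 11.6%, 1.87%, within the interval, 70.3% and 19.98%. With all 3 TET proteins they were 22.5%, 6.11%, 22.2%, 87.3% and 30.7%. Without regions in at least 18 lists 3 moved, to 2.84% (CTCF, BPK25), 15.5% (MBD3) and 19.0% (TET, BPK25). Without chromosome 1 the WT day 9 CTCF share was 14.6% and the day 4 TET share 73.8%. At equal list length WT day 9 CTCF was 8.83% and MBD3 day 9 was 8.89%. Chromosomes 1 to 22 and X, or windows of 100 bp to each side of the summit, left all 5 shares within their intervals. For 28 other shares 299 values were computed under alternatives, of which 105 lay within the interval, 64 above and 130 below. The cause of these moves was not tested. The lists carry no depth and pool the replicates, so leaving out a replicate could not be done. No paired analysis was possible because each list pools replicates 1 to 3.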
